A study of Mus musculus with 20 samples.

Results

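The FGF receptor and ERK pathway is described here through 9 genes, chosen by symbol out of the 34937 genes counted in each embryo: the ligand Fgf4, the receptors Fgfr1 and Fgfr2, the signal relays Grb2 and Sos1, the feedback inhibitors Spry2, Spry4 and Dusp6, and the ETS transcription factor Etv5. RNA was sequenced from single 8 cell stage (8C) mouse embryos on a mixed background, collected at E2.5 from natural matings and judged morphologically normal, to ask how loss of maternal G9a changes transcription. G9a, encoded by Ehmt2, is a methyltransferase that deposits dimethylation on lysine 9 of histone H3. All mothers carried Zp3-Cre, which is active in growing oocytes, together with a conditional Ehmt2 allele, and the males were Ehmt2+/-. Mothers of control embryos (Ehmt2Cntr, n = 9) were Ehmt2F/+, and 6 of these embryos had the zygotic genotype +/+ and 3 had +/-. Mothers of maternally depleted embryos (Ehmt2Mat, n = 10) were Ehmt2F/-, and 5 of these embryos were zygotic +/- (Ehmt2M/+) and 5 were -/- (Ehmt2M/Z). No Ehmt2Mat embryo was +/+ and no control was -/-, so maternal group and number of zygotic copies are partly confounded. The labels name neither mothers nor litters, so the p-values measure the spread between single embryos, some of which may be littermates.

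In this pathway, secreted FGF ligands bind receptor tyrosine kinases, whose activation recruits adaptors and RAS exchange factors and, through RAF and MEK, the ERK kinases. ERK activity induces ETS factors and inhibitors of the Sprouty and DUSP families, which act back on the pathway. In the mouse blastocyst, FGF4 made by epiblast precursors acts through FGFR1 and FGFR2 on inner cells and directs the choice between epiblast and primitive endoderm. The embryos examined here precede that choice.

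The total count per embryo was between 12985149 and 30053248 in controls and between 8231646 and 30602434 in Ehmt2Mat embryos, which makes 3 counts worth 0.0911 to 0.363 CPM (counts scaled to a common library size after TMM normalization). This floor covers counting error only, whereas the 95% intervals given below include the spread between embryos. Embryo genes such as Pou5f1, Nanog and Tead4 had reads in every embryo, whereas Cdx2 was at 0 in 13 of 19. The 8 embryo markers summed to 2171 to 3501 CPM in controls (median 2729) and 3124 to 4056 CPM in Ehmt2Mat embryos (median 3427). Dppa3 gave most of this sum, with medians of 1764 and 2411 CPM. The 7 oocyte markers summed to 51.5 to 324 CPM and 113 to 352 CPM. Single markers moved in both directions. Tead4 and Tfap2c were higher in Ehmt2Mat embryos and Klf5 was lower (edgeR adjusted p = 0.0046, 0.0183 and 0.000486). Of the 7 oocyte markers, 5 had the higher median in controls, whereas Oosp1 rose in Ehmt2Mat embryos (medians 8.46 and 63.0 CPM, edgeR adjusted p = 0.00277). Transcripts of 5 oviduct epithelium genes, of which Ovgp1 gave most reads, summed to 0.0904 to 390 CPM in controls and to 10.1 to 2868 CPM in Ehmt2Mat embryos. Ovgp1 itself did not pass the test (log2 fold change 3.41, edgeR adjusted p = 0.0926), and the other 4 were not tested. Ehmt2 itself was counted over all its exons, which does not single out the deleted part. Its level was 66.6, 133 and 253 CPM (lowest, median and highest) in controls and 58.7, 94.8 and 159 CPM in Ehmt2Mat embryos, and the difference did not pass the test (log2 fold change -0.47 ± 0.24, SE; edgeR adjusted p = 0.233).

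Of the 9 genes, Fgfr1 fell in Ehmt2Mat embryos and the other 8 did not pass the test. All 9 were abundant enough to be tested by edgeR among 11754 genes, of which 9.35% differed between the groups in either direction and 4.98% were lower in Ehmt2Mat embryos, at an adjusted p under 0.05. The count of 1 in 9 is therefore close to this background, and the result concerns Fgfr1 alone. The median log2 fold change was -0.69 over the 9 genes and -0.04 over all genes tested, a difference that was not tested. With 9 genes the median is the value of 1 gene, Etv5 (SE 0.63, edgeR adjusted p = 0.571). On counts per kilobase of exon (RPKM), the median level in controls was highest for Grb2 (54.0) and Sos1 (29.1), intermediate for Fgfr1 (15.8), Fgf4 (9.96) and Fgfr2 (7.04), and low for Spry2 (3.18), Spry4 (2.98), Etv5 (1.65) and Dusp6 (0.944). The cDNA protocol favours the 3′ ends of transcripts, so this order between genes of unequal length is approximate.

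**Figure D1:**
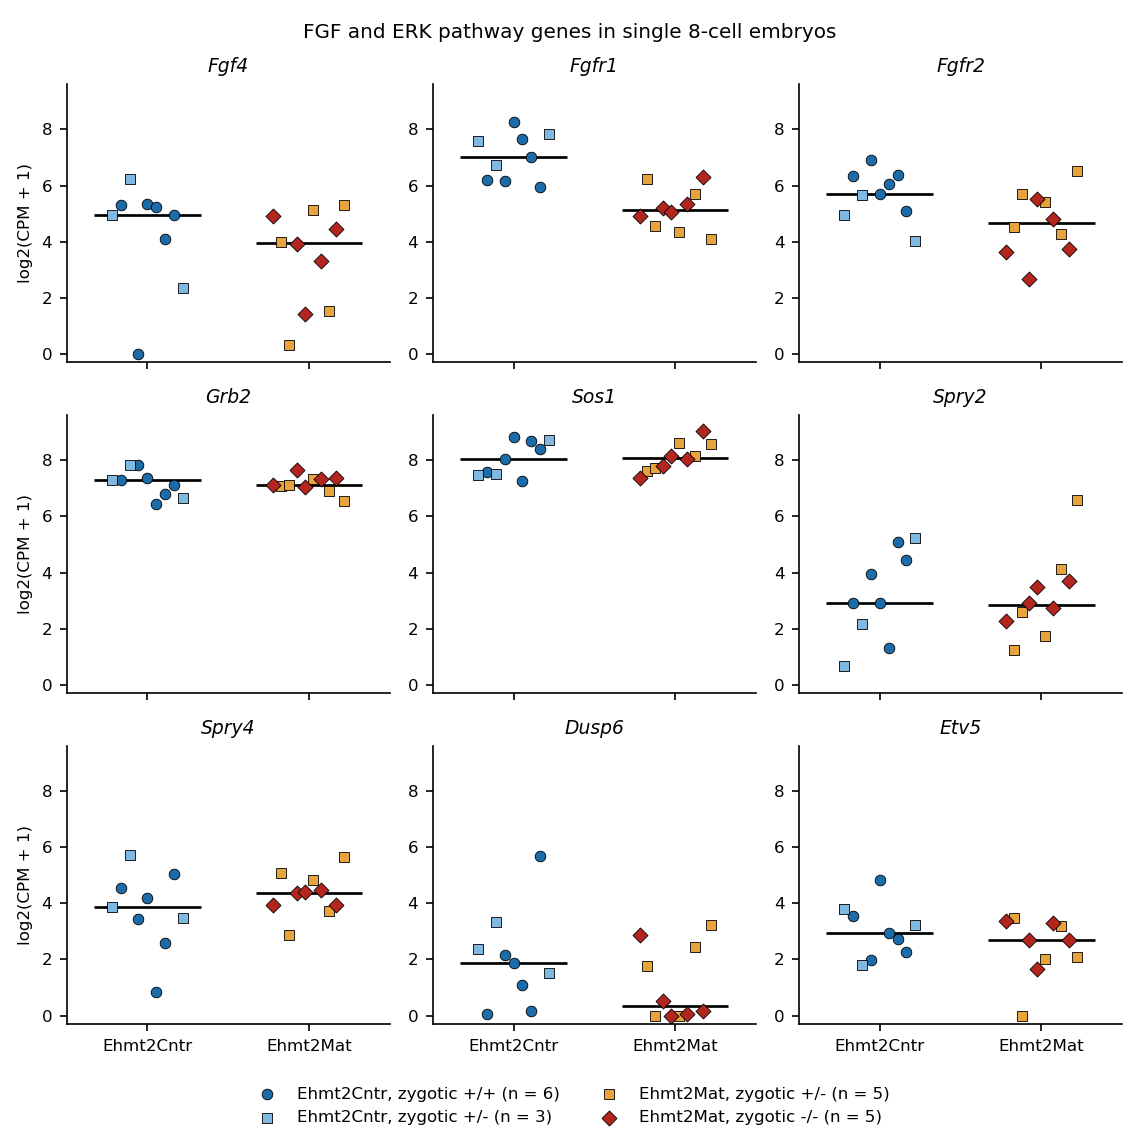
Expression of the 9 genes in each embryo, as log2(CPM + 1), in 9 Ehmt2Cntr and 10 Ehmt2Mat embryos, with symbols for the zygotic genotype, horizontal lines at the group medians and sideways position without meaning. The 2 groups separate most for Fgfr1, where all 10 Ehmt2Mat embryos lie below the control median, and the low genes Spry2, Dusp6 and Etv5 spread widely within each group.

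Fgf4, the ligand of the inner cell mass (chromosome 7, 144861386 to 144865243, GRCm38, plus strand), was highly variable in single embryos. Its level was 0, 30.2 and 75.02 CPM (lowest, median and highest) in controls and 0.242, 14.5 and 38.7 CPM in Ehmt2Mat embryos. The lowest values were those of a control without a read (embryo 5) and an Ehmt2Mat embryo with 2 counts (embryo 3), followed by Ehmt2Mat embryos 5 and 8 (1.71 and 1.91 CPM) and control embryo 10 (4.10 CPM), and the groups overlapped. The log2 fold change was -0.86 ± 0.73 (SE; 95% interval -2.30 to 0.58; edgeR adjusted p = 0.534), and the exact permutation test over all 92378 splits of the embryos gave p = 0.33. The interval leaves room for a fall of more than 4-fold as well as for a small rise.

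Fgfr1 encodes the receptor that is expressed broadly in the inner cell mass and lies on chromosome 8 (25513654 to 25575714, plus strand). Its level was 60.1, 128 and 309 CPM (lowest, median and highest) in controls and 16.2, 34.1 and 77.2 CPM in Ehmt2Mat embryos. The controls averaged 152 ± 85 CPM (SD, n = 9), and the Ehmt2Mat embryos averaged 39.8 ± 21.5 CPM (SD, n = 10). All 10 Ehmt2Mat embryos were below the control median and 8 of them were below every control, while 6 controls were above every Ehmt2Mat embryo. The ranges met only through Ehmt2Mat embryos 2 and 9 (74.5 and 77.2 CPM) and control embryos 2, 5 and 9 (72.8, 70.8 and 60.1 CPM), where 0.179% of all genes tested were lower in Ehmt2Mat embryos without any overlap. The fall was 3.80-fold (log2 fold change -1.93 ± 0.34, SE; 95% interval -2.59 to -1.26; edgeR adjusted p = 0.00118), and the exact permutation test gave p = 0.000195. With any 1 embryo left out, the log2 fold change stayed between -2.08 and -1.73 and the edgeR adjusted p between 0.00098 and 0.00297. Each library holds a whole embryo, so fewer cells with the transcript and less transcript per cell cannot be told apart.

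Counts near Fgfr1 could include other transcripts: 2.02% of its exon bases were shared with the antisense gene Gm16159, and no strand option was used in counting. Fgfr2 shared 4.34% of its exon bases with Ctbp2 on the same strand, and reads there were counted for both genes. These are shares of bases, and the share of the counts that came from them was not measured. The exons of the other 7 genes overlapped no other annotated exon.

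**Figure D2:**
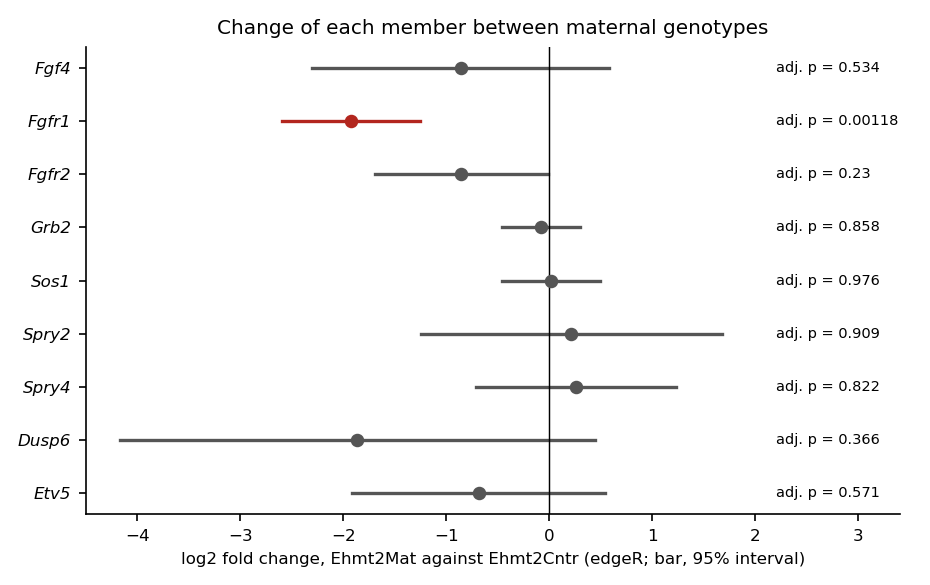
Log2 fold change of each of the 9 genes in Ehmt2Mat against Ehmt2Cntr embryos (points) with its 95% interval (bars) and edgeR adjusted p, red where this is under 0.05. Only the interval of Fgfr1 (-2.59 to -1.26) lies well below 0, and that of Fgfr2 ends at -0.02, although its unadjusted edgeR p was 0.0571.

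Fgfr2 is the second receptor of this choice in the blastocyst (chromosome 7, 130162451 to 133123350, minus strand, an annotated span that includes exon bases shared with Ctbp2). It was lower on average in Ehmt2Mat embryos without passing the test. Its level was 15.5, 51.0 and 119 CPM (lowest, median and highest) in controls and 5.44, 24.5 and 90.0 CPM in Ehmt2Mat embryos. In 8 of 10 Ehmt2Mat embryos it was below the control median, but Ehmt2Mat embryo 10, which had the lowest Fgfr1, had the highest Fgfr2 of its group. The log2 fold change was -0.85 ± 0.43 (SE; 95% interval -1.69 to -0.02; edgeR unadjusted p = 0.0571, edgeR adjusted p = 0.23). The interval is a normal approximation and ends just short of 0, although the edgeR test did not pass 0.05 even without adjustment. The exact permutation test on log2(CPM + 1) gave an unadjusted p = 0.0493, which moved to between 0.016 and 0.0947 when 1 embryo was left out.

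The receptors were next compared between zygotic genotypes. For Fgfr1, the order of the mean levels was control +/- (174 ± 62 CPM, SD, n = 3), control +/+ (140 ± 98, SD, n = 6), Ehmt2M/Z (42.9 ± 19.5, SD, n = 5) and Ehmt2M/+ (36.8 ± 25.3, SD, n = 5). Neither the 2 control classes (exact permutation test, p = 0.417) nor the 2 maternally depleted classes (exact permutation test, p = 0.452) differed beyond their spread. Among zygotic +/- embryos, Fgfr1 was at 105, 192 and 226 CPM in the 3 controls and at 16.2, 19.3, 22.8, 51.2 and 74.5 CPM in the 5 Ehmt2M/+ embryos. In these 8 embryos its log2 fold change was -2.26 ± 0.51 (SE), larger than over all embryos, but the edgeR adjusted p was 0.572, and 1 gene of 13401 passed in that fit. With the number of functional zygotic copies as a covariate, the value was -2.23 ± 0.52 (SE; edgeR adjusted p = 0.15).

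For Fgfr2, the same classes fell in another order. The mean was 71.8 ± 29.8 CPM (SD, n = 6) in control +/+, 44.7 ± 28.8 (SD, n = 5) in Ehmt2M/+, 32 ± 17.5 (SD, n = 3) in control +/- and 20.1 ± 15.9 (SD, n = 5) in Ehmt2M/Z embryos. The 3 control +/- embryos had 15.5, 30.2 and 50.3 CPM, and the 5 Ehmt2M/Z embryos had 5.44, 11.3, 12.3, 26.9 and 44.7 CPM. Within controls, +/- embryos were lower than +/+ embryos by -1.15 ± 0.48 on the log2 scale (SE), and within Ehmt2Mat embryos, -/- were lower than +/- by -1.15 ± 0.57 (SE). Neither passed edgeR's test (adjusted p = 0.9998 and 0.9997), where 0 of 12646 and 0 of 12195 genes passed, 4.52% and 2.21% had an unadjusted p under 0.05, and DESeq2 called 103 and 15 genes, Fgfr2 not among them. The exact permutation tests gave unadjusted p = 0.0357 and p = 0.103, where the smallest values possible were 0.012 and 0.0079. Among zygotic +/- embryos, Fgfr2 turned direction, with a log2 fold change of 0.47 ± 0.59 (SE; edgeR adjusted p = 0.973) in Ehmt2Mat embryos, and with zygotic copies as a covariate it was 0.48 ± 0.58 (SE; edgeR adjusted p = 0.897). The lower average of Fgfr2 in Ehmt2Mat embryos therefore cannot be told apart from their lower number of zygotic copies.

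**Figure D3:**
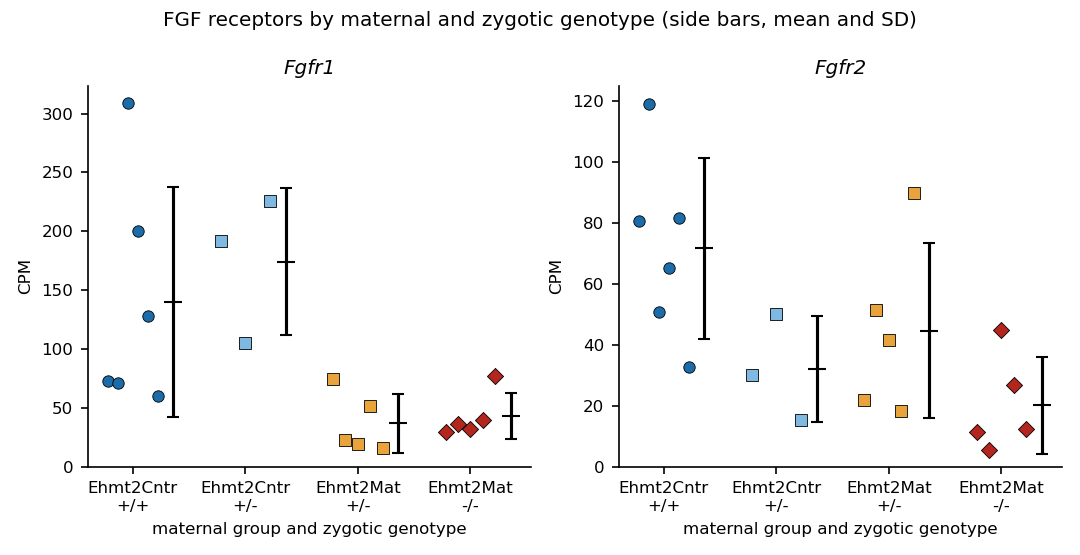
CPM of Fgfr1 and Fgfr2 in each embryo by maternal group and zygotic genotype (n = 6, 3, 5 and 5 from left to right), with the mean and SD beside each class. Fgfr1 separates by maternal group, with the means of both control classes at 140 CPM or more and of both Ehmt2Mat classes below 43 CPM, while Fgfr2 has its 2 lower means in the class of each maternal group with fewer zygotic copies.

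The other 2 kinase receptors, Fgfr3 and Fgfr4, did not pass the test. Fgfr3 was at 1.72, 13.5 and 34.5 CPM (lowest, median and highest) in controls and at 2.43, 10.1 and 56.2 CPM in Ehmt2Mat embryos, with a log2 fold change of -0.16 ± 0.55 (SE; edgeR adjusted p = 0.907). Fgfr4 was at 12, 30.1 and 57.5 CPM in controls and at 0.364, 22.1 and 64.9 CPM in Ehmt2Mat embryos, with a log2 fold change of -0.45 ± 0.48 (SE; edgeR adjusted p = 0.636). Per kilobase of exon, Fgfr1 was the highest of the 4 receptors in 6 of 9 controls and in 2 of 10 Ehmt2Mat embryos. Fgfr2 was the highest in 2 of 9 and 3 of 10, and Fgfr4 in 1 of 9 and 5 of 10, a count that was not tested. This count depends on the division by exon length (8120 bases for Fgfr1, 3542 for Fgfr4), which the 3′ bias of the protocol makes approximate. In Ehmt2Mat embryo 1, for example, Fgfr1 was above Fgfr4 in CPM (29.6 and 21.5) but below it in RPKM (3.64 and 6.07).

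Grb2 and Sos1, the adaptor that binds the activated receptor complex and the exchange factor that it brings to RAS, had the steadiest levels of the 9 genes. Grb2 (chromosome 11, 115644045 to 115708597, minus strand) was at 86.7, 157 and 229 CPM (lowest, median and highest) in controls and at 91.5, 139 and 199 CPM in Ehmt2Mat embryos. Its log2 fold change was -0.08 ± 0.19 (SE; 95% interval -0.46 to 0.29; edgeR adjusted p = 0.858). Sos1 (chromosome 17, 80393752 to 80480453, minus strand) was at 154, 260 and 451 CPM in controls and at 164, 272 and 521 CPM in Ehmt2Mat embryos. Its log2 fold change was 0.02 ± 0.24 (SE; 95% interval -0.46 to 0.50; edgeR adjusted p = 0.976). For both genes the groups overlapped almost fully, and the intervals leave out a change of 2-fold in either direction.

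Spry2 and Spry4 encode Sprouty proteins, which restrain signalling from receptor tyrosine kinases to ERK. Spry2 (chromosome 14, 105891949 to 105896819, minus strand) was at 0.579, 6.62 and 36.4 CPM (lowest, median and highest) in controls and at 1.34, 6.13 and 95.4 CPM in Ehmt2Mat embryos. The highest value belonged to Ehmt2Mat embryo 10, whereas the next embryo of that group had 16.6 CPM. The log2 fold change was 0.21 ± 0.75 (SE; edgeR adjusted p = 0.909), and without embryo 10 it turned to -0.97 (edgeR adjusted p = 0.391). Spry4 (chromosome 18, 38586268 to 38601268, minus strand) was at 0.769, 13.7 and 51.6 CPM in controls and at 6.30, 19.8 and 48.6 CPM in Ehmt2Mat embryos, where 8 of 10 were above the control median. Its log2 fold change was 0.26 ± 0.49 (SE; 95% interval -0.71 to 1.23; edgeR adjusted p = 0.822).

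Dusp6, the phosphatase that removes phosphate from ERK in the cytoplasm (chromosome 10, 99263231 to 99267488, plus strand), was at or near the counting floor in many embryos. Its level was 0.0452, 2.64 and 49.8 CPM (lowest, median and highest) in controls and 0, 0.279 and 8.29 CPM in Ehmt2Mat embryos. In 2 of 9 controls and 5 of 10 Ehmt2Mat embryos it had 3 or fewer counts. The log2 fold change was -1.86 ± 1.18 (SE; edgeR adjusted p = 0.366), with an interval from -4.17 to 0.44, and DESeq2 gave -0.31 (DESeq2 adjusted p = 0.907). Control embryo 9 alone held 49.8 CPM, and without it the value was -0.34 (edgeR adjusted p = 0.906).

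Etv5, an ETS factor induced by FGF signalling in many tissues (chromosome 16, 22381309 to 22439719, minus strand), was at 2.47, 6.77 and 27.4 CPM (lowest, median and highest) in controls. In Ehmt2Mat embryos it was at 0, 5.53 and 10.2 CPM, and the groups overlapped except for 3 controls above every Ehmt2Mat embryo and 2 Ehmt2Mat embryos below every control. The log2 fold change was -0.69 ± 0.63 (SE; 95% interval -1.92 to 0.55; edgeR adjusted p = 0.571). Without control embryo 6, which had the highest value, it was -0.27 (edgeR adjusted p = 0.869). Its relative Etv4 had reads in 1 of 19 embryos (8 counts) and was not tested.

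The spread between embryos of a group differed widely among the 9 genes and set what could be seen. The biological coefficient of variation estimated by edgeR was 0.31 for Grb2 and 0.38 for Sos1, below the median of 0.628 over all genes tested. It was 0.508 for Fgfr1, 0.637 for Fgfr2, 0.733 for Spry4 and 0.893 for Etv5. It reached 1.06 for Fgf4 and Spry2 and 1.64 for Dusp6, so that changes of the ligand and of the feedback genes were not detectable here unless they were large.

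Across the 19 embryos, none of the 36 pairs of these genes was correlated past an adjusted p of 0.05 (permutation test within groups, 100000 resamples, on log2(CPM + 1) with the mean of each maternal group removed, as for every r and rho of a pair below unless stated). The strongest pair was Sos1 and Spry2, with Pearson's r = 0.655 (permutation p = 0.0045, adjusted p = 0.0997) and Spearman's rho = 0.70 (permutation p = 0.0024, adjusted p = 0.0781), and r was 0.756 without the 2 embryos farthest from the median of Sos1. Fgfr1 and Etv5 had r = 0.62 (permutation p = 0.0055, adjusted p = 0.0997) and rho = 0.64 (permutation p = 0.0043, adjusted p = 0.0781), with r = 0.691 in controls, 0.563 in Ehmt2Mat embryos and 0.553 without the 2 farthest embryos. For Fgfr1 and Fgfr2 the value was r = 0.08 with the group means kept and, with them removed, r = -0.505 (permutation p = 0.0307, adjusted p = 0.368) and rho = -0.505 (permutation p = 0.0288, adjusted p = 0.224), with r = -0.413 in controls, -0.591 in Ehmt2Mat embryos and -0.513 without the 2 farthest embryos. The genes whose log2(CPM + 1) followed Fgfr1 most closely over the 19 embryos, by Pearson's r with the group means kept, were Ppp1r26 (0.797), Fam83d (0.794) and Atp6v0a1 (0.786), and these values were 0.501, 0.439 and 0.523 once the group means were removed. For Fgfr2 they were Papola (0.829), Ranbp1 (0.828) and Gm16062 (0.817), for Fgf4 Slc35b4 (0.869), Fam216a (0.782) and Cep19 (0.773), and for Etv5 Mtmr3 (0.843), Slc23a2 (0.834) and Cops7b (0.827).

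For the feedback genes, the most similar were Naf1 (0.899), Ptges3 (0.849) and Togaram1 (0.831) for Spry2, Jak2 (0.826), Gm14233 (0.797) and Tbp (0.791) for Spry4, and Cdkn2c (0.811), Plk3 (0.766) and Bcl2l11 (0.760) for Dusp6. For the relays they were Gm28875 (0.754), C87436 (0.752) and Calml4 (0.695) for Grb2 and Srrm1 (0.839), Gm26944 (0.822) and Parp2 (0.805) for Sos1. These are the highest values out of all genes tested and are given as a description.

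Beyond the 9 genes, 90 other genes of the pathway were examined, of which 61 could be tested and 2 fell, 0 rose (edgeR adjusted p under 0.05, against 4.98% lower and 4.37% higher over all genes tested). An unadjusted edgeR p under 0.05 was found for 8 of the 61, a smaller share than the 2734 of 11754 among all genes tested. DESeq2 called 4 of the 72 to which it gave an adjusted p (5.56%, against 13.6% of the 15164 genes with one), the same 2 together with Ccnd1, lower, and with Dusp4, higher, a gene that edgeR did not test. Their edgeR median log2 fold change was -0.14. By role, the calls were 0 of 3 ligands tested, 0 of 4 receptors and co-receptors, 0 of 7 heparan sulphate enzymes, 1 of 14 adaptors and RAS proteins, 0 of 12 genes of the RAF, MEK and ERK relay, 0 of 10 feedback inhibitors and 1 of 11 ETS factors and early targets. Of the 21 other FGF ligands, Fgf1, Fgf2 and Fgf3 were tested, and 5 had no read in any embryo.

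**Figure D4:**
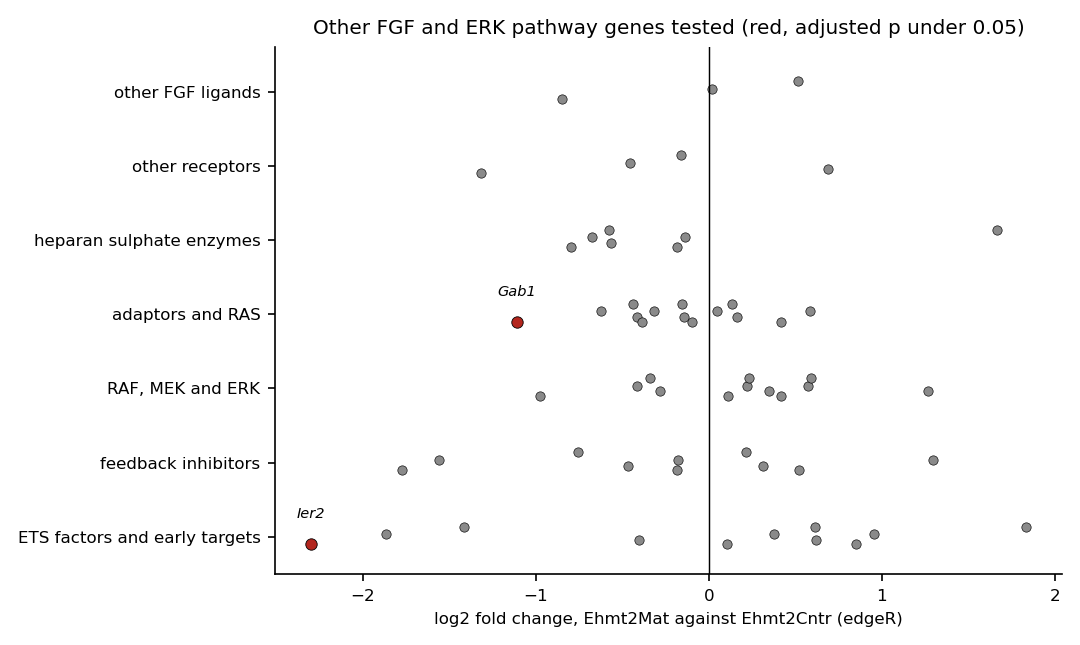
Log2 fold change in Ehmt2Mat against Ehmt2Cntr embryos of the 61 other pathway genes tested, by role, with vertical offsets for legibility only. The 2 genes past an adjusted p of 0.05, Gab1 and Ier2 (red), lie below 0, and every role holds genes on both sides of 0.

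Mapk3, which encodes ERK1, was at 0.723, 11.2 and 17.4 CPM (lowest, median and highest) in controls and at 0.989, 8.93 and 33.4 CPM in Ehmt2Mat embryos (log2 fold change 0.11 ± 0.63, SE; edgeR adjusted p = 0.943). The MEK genes upstream had log2 fold changes of -0.34 ± 0.24 (SE; Map2k1, edgeR adjusted p = 0.428) and -0.41 ± 0.24 (SE; Map2k2, edgeR adjusted p = 0.314).

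Gab1, a docking protein downstream of receptor tyrosine kinases, was at 16.3, 59.7 and 132 CPM (lowest, median and highest) in controls and at 7.51, 34.03 and 62.4 CPM in Ehmt2Mat embryos, a fall of 2.155-fold (log2 fold change -1.11 ± 0.35, SE; edgeR adjusted p = 0.0436). The docking protein that links FGF receptors to Grb2, Frs2, had a log2 fold change of -0.14 ± 0.31 (SE; edgeR adjusted p = 0.844). Ier2, an immediate early gene, was at 2.78, 7.64 and 55.1 CPM in controls and at 0.155, 1.72 and 8.04 CPM in Ehmt2Mat embryos (log2 fold change -2.30 ± 0.68, SE; edgeR adjusted p = 0.0329). Without control embryo 7, which had the highest value, Ier2 was at -1.55 (edgeR adjusted p = 0.159), and with any 1 embryo left out the adjusted p of Gab1 ranged from 0.0162 to 0.0983. Among zygotic +/- embryos, the log2 fold changes of Gab1 and Ier2 were -0.63 and -1.01, and neither passed (edgeR adjusted p = 0.962 and 0.964). The feedback genes Spry1 (0.21 ± 0.92, SE; edgeR adjusted p = 0.927) and Dusp7 (-0.18 ± 0.45, SE; edgeR adjusted p = 0.87) did not pass on the log2 scale.

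The summed oviduct transcripts exceeded 300 CPM in 1 control (embryo 10) and 4 Ehmt2Mat embryos (embryos 1 to 4), and Ovgp1 gave nearly all of the sum in these embryos. All 5 genes had a higher median in Ehmt2Mat embryos. However, Foxj1, Pax8, Krt7 and Wt1 were low, with group medians of at most 1.58 CPM and no read in 8 to 11 embryos each. Fgfr1 was as low in the other Ehmt2Mat embryos: it was 39.3 ± 22.7 CPM (SD, n = 6) in those under 300 CPM, against 142 ± 86 CPM (SD, n = 8) in such controls. Its log2 fold change without the 5 embryos was -1.86 ± 0.42 (SE; edgeR adjusted p = 0.0188). The control with 390 CPM of oviduct transcripts had 226 CPM of Fgfr1. Without these 5 embryos, Gab1 was at -1.04 ± 0.39 (SE; edgeR adjusted p = 0.149) and Ier2 at -2.60 ± 0.88 (SE; edgeR adjusted p = 0.105), so neither passed. The limit of 300 CPM was chosen after the values were seen and did not make the groups alike. Below it, oviduct transcripts still summed to 0.0904 to 29.7 CPM in controls and to 10.1 to 132 CPM in Ehmt2Mat embryos. Without the 5 embryos above the limit, none of the other 8 genes passed. The log2 fold changes that moved most were those of Spry2 (0.21 to 1.105, edgeR adjusted p = 0.533) and Sos1 (0.02 to 0.38, edgeR adjusted p = 0.497), and that of Fgfr3 went from -0.16 to -0.66 (edgeR adjusted p = 0.642). Of 9 cumulus cell genes, 4 had no read in any embryo and Amhr2 was present in every embryo, at 22.4 to 109.5 CPM in controls (median 46.8) and 42.1 to 164 CPM in Ehmt2Mat embryos (median 71.5; edgeR adjusted p = 0.357). The whole list summed to 22.4 to 109.5 CPM and 42.1 to 166 CPM, and 5 blood genes summed to at most 8.16 CPM.

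**Figure D5:**
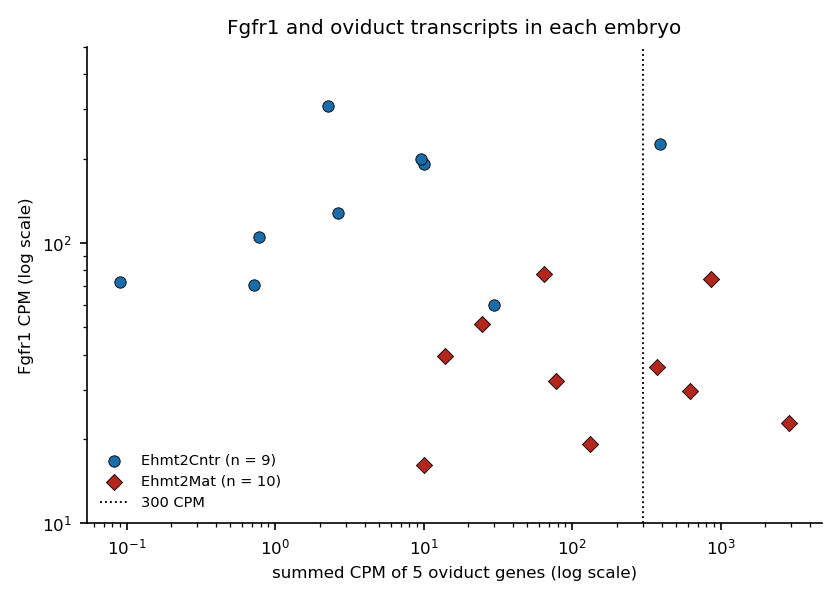
CPM of Fgfr1 against the summed CPM of 5 oviduct genes in each of 9 Ehmt2Cntr and 10 Ehmt2Mat embryos, on log axes, with a dotted line at 300 CPM. To the left of the line, the 6 Ehmt2Mat embryos lie between 16.2 and 77.2 CPM of Fgfr1, and the control to the right of the line lies at 226 CPM. Also to the left, oviduct transcripts sum to 10.1 to 132 CPM in Ehmt2Mat embryos and to 0.0904 to 29.7 CPM in controls.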

How the data were processed

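Raw counts per gene were deposited by the authors for each embryo, with no normalization. Per the file headers, featureCounts 1.5.0 counted reads over GRCm38 exons as annotated in Ensembl release 82, with an overlap of at least 10 bases, multi-mapping reads kept, reads on several genes given to each, and no strand option. The headers name no aligner, and the submitters' processing notes list TopHat2. Control embryo 4 is not analysed here. Symbols were matched for 34599 of 34937 gene IDs.

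From these counts, edgeR 4.0.16 (R 4.3.3) with filterByExpr, TMM and the quasi-likelihood test compared the groups without covariates, with Benjamini-Hochberg adjustment over all genes tested and a threshold of 0.05. Standard errors were derived from the test statistic. CPM used TMM-scaled library sizes. Exact permutation tests were two-sided on log2(CPM + 1), unadjusted. The scripts were tested on simulated data. The embryo number did not pair the samples. The 9 genes, the pathway and marker lists and the tests were chosen with earlier results of these data known. Named in the text are the 9 genes, Ehmt2, other pathway genes past the threshold, 9 further pathway genes whatever their values, and the 3 genes most correlated with each of the 9. A withheld pathway gene is not reported here and is left out of the pathway counts.

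Other settings tried were DESeq2 1.42.0, upper-quartile and RLE normalization, other filters and pseudocounts, thinned counts, a fold threshold, the embryo number as a block, zygotic +/- embryos only and each embryo left out. Removal of the embryos above 300 CPM of oviduct transcripts and the covariate of zygotic copies were added after seeing the data.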

Additional observations from a re-analysis of the deposited data

Results flagged for a closer look

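Of 26 sets of embryos examined for 1 value far from the others (Dixon's test), 7 held such a value. The test's rate of about 1 in 20 holds for normally distributed values. CPM values here were skewed and the sets share embryos, so the count of 7 cannot be judged by that rate. Among the 9 pathway genes, Spry2 in Ehmt2Mat embryo 10 was at 95.4 CPM, against 16.6 CPM in the next embryo of its group. Dusp6 in control embryo 9 was at 49.8 CPM, against 9.04 CPM in the next control. Etv5 in control embryo 6 was at 27.4 CPM, against 13.0 CPM in the next. Of the other pathway genes named, Ier2 in control embryo 7 was at 55.1 CPM, against 15.9 CPM. The summed oviduct transcripts stood apart in control embryo 10 (390 CPM, next 29.7 CPM) and in Ehmt2Mat embryo 3 (2868 CPM, next 864 CPM). Control embryo 10 also had the most genes with a read of its group (16142, next 13230).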

How the results depend on the processing

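Fgfr1 stayed lower in Ehmt2Mat embryos under all 29 other settings, with a log2 fold change from -2.26 to -1.73, and passed under 27 of them, the exceptions being the +/- embryos alone and the covariate of zygotic copies (0 of the 9 genes under each). No other of the 9 genes passed under any setting of edgeR or DESeq2. The median log2 fold change of all genes moved from -0.04 to 0.14 with DESeq2 and to 0.13 with no filter on low counts, both of which take in more genes. Out of all genes, 667 passed with at least a 2-fold change, 2068 with DESeq2 and 465 without the 5 embryos rich in oviduct transcripts, while 1 passed among +/- embryos and 3 with zygotic copies as a covariate. Of the other pathway genes, 4 passed with DESeq2, 1 (Gab1) with at least 10 counts in every embryo, 1 (Egr1) with the replicate block, 2 (Ier2 and Fgf17, with Gab1 lost at an adjusted p of 0.0545) with no filter on low counts, and 0 among +/- embryos, without the oviduct-rich embryos or with the covariate. Under these settings Egr1 and Fgf17 were higher in Ehmt2Mat embryos, and they had reads in only 11 and 4 embryos. The replicate block on the embryo number left 693 genes and kept Fgfr1 (adjusted p = 0.0232), but lost Gab1 (adjusted p = 0.0694) and Ier2 (adjusted p = 0.119). Same-numbered embryos did not deviate together (mean r 0.029 over 9 pairs, 2 above 0.1, and 1 control correlated best with its own number).

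In edgeR, directions turned only for genes that passed under neither setting. Among +/- embryos, log2 fold changes turned to 0.47 for Fgfr2, 0.36 for Fgfr3, 0.11 for Frs2 and 0.57 for Dusp7, and with the covariate to 0.48, 0.58, 0.13 and 0.62. Sos1 was at -0.0060 with at least 10 counts in every embryo. Without the oviduct-rich embryos, Mapk3 was at -0.27 and Spry1 at -0.21. The mean difference of Spry2 on the log2 scale turned to 0.020 at a pseudocount of 0.1 and to 0.80 without the oviduct-rich embryos. In the exact permutation test, 1 of the 9 genes (Fgfr1) passed without those embryos. The causes were not tested.

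With 1 embryo left out at a time, 0 to 2 other pathway genes passed (0 without control 3 or 7 or Ehmt2Mat embryo 1, 8 or 9), 1 to 2 of the 9 genes passed the exact permutation test, and 0 to 1 pairs of genes were correlated (Sos1 and Spry2, without Ehmt2Mat embryo 6). Log2 fold changes ranged from -0.16 to 0.013 for Grb2, -0.11 to 0.11 for Sos1, -0.97 to 0.55 for Spry2, -0.72 to 0.068 for Fgfr3, -0.33 to 0.29 for Mapk3 and -0.66 to 0.86 for Spry1. Mean differences of log2(CPM + 1) ranged from -0.13 to 0.045 for Grb2, -0.057 to 0.14 for Sos1 and -0.43 to 0.21 for Spry2. Low counts limit Dusp6, which had 3 or fewer in 7 of 19 embryos and a log2 fold change from -2.92 with the replicate block (adjusted p = 0.57) to -0.31 with DESeq2.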
